A study of Mus musculus with 4 samples.

Results

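Genes of DNA replication and cell division were compared between tissue at coated and tissue at non-coated porous scaffolds. The set held 44 genes chosen by name, of 19087 genes named on the array. It was divided by textbook role into 20 genes of G1 phase and DNA synthesis, called G1/S members, and 24 genes of G2 phase and mitosis, called mitotic members. All members except Ccnb1, which encodes cyclin B1 and had no named probe in the annotation used, were measured on every array, so 20 G1/S and 23 mitotic members had values. Over all named genes, 11842 were measured on every array.

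The question was how host tissue in mice meets a bioactive and a bio-inert surface. The coated scaffolds carried either collagen, a matrix protein to which cells attach, or PMB, a polymer of 2-methacryloyloxyethyl phosphorylcholine (MPC) and n-butyl methacrylate that resists protein and cell attachment, and the labels title the PMB arrays MPC-coated. The non-coated scaffold was the reference of both. GEO's title calls the scaffold material polystyrene and the paper's methods call it polyethylene. All scaffolds lay under the dorsal skin of male C57BL/6 mice aged 8 weeks for 7 days, with 1 biological experiment, taken here as 1 mouse for each of the 3 kinds of scaffold. It is not stated if each of these mice carried 1 kind only. Tissue at each scaffold was cut from sections by laser and its RNA pooled, so every extract mixed all cell types present. In such tissue, fewer dividing cells and less RNA of these genes per dividing cell cannot be told apart.

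Each coated extract was hybridised on 2 arrays against 1 and the same non-coated extract, with the coated RNA in Cy5 on replicate 1 and in Cy3 on replicate 2. These 2 arrays swap the dyes between identical extracts, and so form 1 replicate. Values are log2 ratios of coated over non-coated signal, and ± is the SD of the 2 arrays, which holds dye and hybridisation error but no difference between mice. With 1 extract per scaffold no test between scaffolds was possible and no p-value is given. The 2-fold rule used for counts asked for a mean of 1 or more above 0, or 1 or more below it, and for arrays of equal sign. Before the signs were turned, replicates 1 and 2 correlated at -0.79 (collagen) and -0.66 (PMB) across 22380 probes with 4 values. Between 52.3% and 60.5% of the probes had a value on an array. The table held ratios only, so no gene's level is given.

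A cell that commits to division makes G1 cyclins, which with their kinases release the E2F factors from the retinoblastoma protein. E2F factors then switch on the genes that license replication origins, load the MCM helicase, supply nucleotides and copy DNA. Later, in G2 phase and mitosis, a later wave of genes is switched on, which drives chromosome condensation, spindle assembly, the spindle checkpoint and cytokinesis. In resting cells many genes of both waves are held silent by the DREAM complex, which sits at E2F sites in genes of the first wave and at CHR elements in genes of the later one. The B-MYB and FOXM1 factors act with the MuvB core of that complex to switch on the later wave. In healing tissue, fibroblasts, endothelial cells, macrophages and epidermal cells can all divide.

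Promoter windows are shown because E2F sites and CHR elements are the letters by which the 2 waves are told apart. RefSeq entries of build GRCm38.p6, each of 300 bases with 250 before and 50 after the start site, were found for 36 members, 17 G1/S and 19 mitotic. No entry was matched for Ccnd1, Ccne2, Mcm4, Ccna2, Foxm1, Aurkb, Kif20a and Tpx2. Mcm7 and Bub3 had 2 entries each, and a gene was counted when any of its entries held the match. The letters searched on both strands were TTCCCGC and TTGGCGC, which are forms of the E2F site, TTTGAA, the CHR element, and CCAAT, the CCAAT box. TTGGCGC preceded by A also holds ATTGG, the CCAAT box read on the other strand. Printed in the direction of transcription, with every match to any of these letters on either strand in capitals, are the promoters of the 4 members that differed at least 2-fold between the coatings (Bub1b, Top2a, Cdk1 and Cdc20). They are followed by those of Cdc45, the G1/S member with the highest ratio of collagen to PMB, and of Mcm7, the MCM gene with the highest ratio, which has E2F matches. For Mcm7 the entry with both forms of the E2F site is printed, and its other entry lacked TTGGCGC.
Bub1b promoter (GRCm38.p6, chr2:118597961-118598260, plus strand): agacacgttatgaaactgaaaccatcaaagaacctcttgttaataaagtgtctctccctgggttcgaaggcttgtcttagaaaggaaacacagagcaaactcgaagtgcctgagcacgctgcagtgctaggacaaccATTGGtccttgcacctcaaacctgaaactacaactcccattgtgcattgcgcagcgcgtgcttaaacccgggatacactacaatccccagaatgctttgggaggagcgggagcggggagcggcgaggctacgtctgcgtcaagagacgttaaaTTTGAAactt
Top2a promoter (GRCm38.p6, chr11:99024140-99024439, minus strand): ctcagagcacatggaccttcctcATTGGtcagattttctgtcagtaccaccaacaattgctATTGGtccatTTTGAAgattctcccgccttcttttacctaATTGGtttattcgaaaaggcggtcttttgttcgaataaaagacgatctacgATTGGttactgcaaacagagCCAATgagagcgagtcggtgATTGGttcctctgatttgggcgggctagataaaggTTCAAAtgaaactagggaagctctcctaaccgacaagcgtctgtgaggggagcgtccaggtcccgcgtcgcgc
Cdk1 promoter (GRCm38.p6, chr10:69352863-69353162, minus strand): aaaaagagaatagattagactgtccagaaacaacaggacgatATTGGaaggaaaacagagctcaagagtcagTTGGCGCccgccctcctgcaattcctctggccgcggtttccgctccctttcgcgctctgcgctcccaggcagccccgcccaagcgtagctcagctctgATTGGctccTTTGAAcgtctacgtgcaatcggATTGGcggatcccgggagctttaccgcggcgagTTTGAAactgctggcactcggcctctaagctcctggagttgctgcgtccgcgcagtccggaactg
Cdc20 promoter (GRCm38.p6, chr4:118437294-118437593, minus strand): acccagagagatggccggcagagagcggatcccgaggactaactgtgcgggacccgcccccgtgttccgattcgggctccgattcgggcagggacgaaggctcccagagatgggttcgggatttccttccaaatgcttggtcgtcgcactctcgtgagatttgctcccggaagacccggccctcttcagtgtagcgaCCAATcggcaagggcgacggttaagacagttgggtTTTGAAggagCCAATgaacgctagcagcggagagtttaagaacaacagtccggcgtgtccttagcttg
Cdc45 promoter (GRCm38.p6, chr16:18811923-18812222, minus strand): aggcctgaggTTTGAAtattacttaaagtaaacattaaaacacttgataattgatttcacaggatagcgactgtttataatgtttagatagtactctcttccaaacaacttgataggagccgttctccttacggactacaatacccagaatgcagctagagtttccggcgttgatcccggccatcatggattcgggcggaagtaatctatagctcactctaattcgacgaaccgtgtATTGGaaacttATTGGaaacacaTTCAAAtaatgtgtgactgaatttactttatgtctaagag
Mcm7 promoter (GRCm38.p6, chr5:138171834-138172133, minus strand): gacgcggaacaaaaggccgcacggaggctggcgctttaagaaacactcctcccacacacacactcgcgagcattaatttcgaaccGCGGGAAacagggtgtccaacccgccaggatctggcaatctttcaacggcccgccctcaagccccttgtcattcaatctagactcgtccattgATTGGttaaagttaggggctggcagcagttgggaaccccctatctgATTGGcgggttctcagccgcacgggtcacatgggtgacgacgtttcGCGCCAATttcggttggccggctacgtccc

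The CHR letters were common in the mitotic promoters. TTTGAA stood in 2 of 17 G1/S promoters (11.8%) and in 14 of 19 mitotic promoters (73.7%), against 20.2% of 27025 genes in the table. Bub1b had it once, at 41 bases after the start site counted with the start as 1, and Cdc20 had it at -18. Top2a and Cdk1 had it at 2 places each. All 14 mitotic promoters with TTTGAA also held a CCAAT box, and 7.97% of all genes held both. The CCAAT box alone was found in 9 G1/S promoters (52.9%) and 17 mitotic promoters (89.5%), against 41.1% of all genes. Either form of the E2F site was found in 8 G1/S promoters (47.1%) and 3 mitotic promoters (15.8%), against 7.79% of all genes. Cdc45 was one of the 2 G1/S promoters with TTTGAA. The windows follow the listed start sites, and no check was made that each is the main start of its gene. The E2f1 window, which held none of the motifs, may not be its main promoter. A match is a description of these letters and shows no binding.

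**Figure D1:**
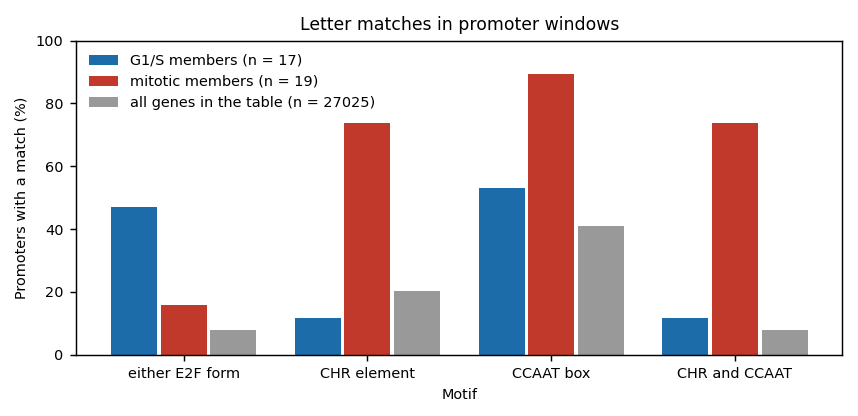
Share of promoter windows that held each motif on either strand, in percent on the vertical axis, for G1/S members (blue, 17 promoters), mitotic members (red, 19) and all genes in the table (grey, 27025). The CHR element stood in 11.8% of G1/S and 73.7% of mitotic promoters, and either form of the E2F site in 47.1% of G1/S and 15.8% of mitotic promoters.

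With the collagen coating, nearly all members lay moderately above the non-coated scaffold, and with PMB most lay moderately below it. The 43 measured members had a median log2 ratio of 0.41 with collagen, from -0.39 to 0.95, and of -0.23 with PMB, from -0.77 to 0.46. The medians of all 11842 measured genes were 0.04 with collagen and 0.02 with PMB. Not one member passed the 2-fold rule with either coating, against 2.21% of all genes that were at least 2-fold higher and 3.38% that were at least 2-fold lower with collagen, and 0.616% higher and 1.4% lower with PMB. Their direction was shared although each ratio was small. With collagen, 38 of 43 members were above 0 on both arrays, where 39.9% of all genes were, and 3 were below 0 on both, where 32% of all genes were. With PMB, 29 of 43 were below 0 on both arrays, where 33.6% of all genes were, and 4 were above 0 on both, where 38.8% of all genes were. On single arrays, 5 members (replicate 1) and 3 (replicate 2) were below 0 with collagen, and 5 (replicate 1) and 13 (replicate 2) were above 0 with PMB. At 1.5-fold, 8 members were higher with collagen (6.4% of all genes) and none was lower (7.6% of all genes), while with PMB 2 were lower (4.48% of all genes) and none was higher (4.32% of all genes).

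**Figure D2:**
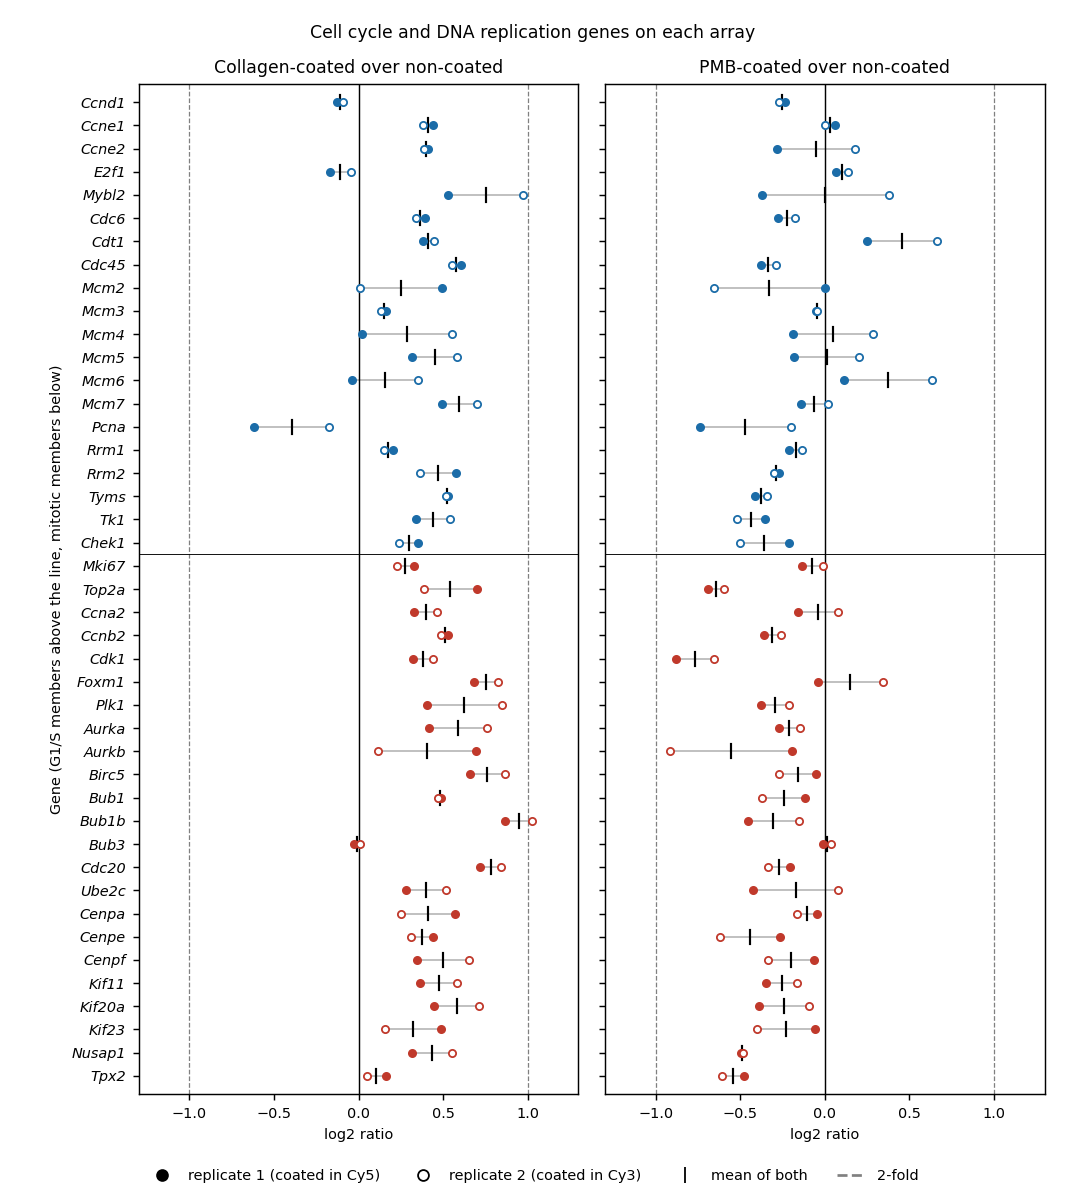
Log2 ratio of coated over non-coated signal for each measured member, with the collagen coating in the left panel and PMB in the right, G1/S members in blue above the line and mitotic members in red below it. Filled points are replicate 1, open points replicate 2, black ticks their mean and dashed lines a 2-fold difference. Most points lie right of 0 with collagen and left of 0 with PMB, and all means lie inside the 2-fold lines.

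The genes that open the cycle did not share 1 pattern. Ccnd1 encodes cyclin D1, the growth factor-responsive G1 cyclin, and E2f1 encodes the activator E2F1. Ccnd1 had log2 ratios of -0.13 and -0.09 on the collagen arrays and of -0.24 and -0.27 on the PMB arrays, so it lay slightly below the non-coated scaffold on all 4. E2f1 had -0.17 and -0.04 with collagen and 0.07 and 0.14 with PMB. It was the only member below 0 on both collagen arrays and above 0 on both PMB arrays. These are means of 11 entries, which lay on both sides of 0 on every array but collagen replicate 1. They ran from -0.21 to 0.10 on collagen replicate 2. With PMB they ran from -0.19 to 0.27 on replicate 1 and from -0.06 to 0.28 on replicate 2. The E-type cyclins, which drive entry into DNA synthesis, averaged 0.41 (Ccne1) and 0.40 (Ccne2) with collagen. With PMB, Ccne1 had 0.06 and 0.00, and the 2 arrays of Ccne2 had opposite signs. Mybl2, which encodes B-MYB, had the highest collagen ratio of the G1/S members, with 0.53 and 0.97 on the arrays and a mean of 0.75 ± 0.32. Its PMB arrays read -0.37 and 0.38, so the direction with PMB is not settled.

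The origin licensing genes were all higher with collagen on both arrays. Cdc6 and Cdt1, whose proteins load the MCM helicase onto origins, averaged 0.37 and 0.41, and Cdc45, part of the active helicase, averaged 0.58. With PMB they parted. Cdc6 averaged -0.23 and Cdc45 -0.33, both below 0 on both arrays, whereas Cdt1 read 0.25 and 0.66 and had the highest PMB mean of all members, 0.46 ± 0.29. Cdt1 was thus above the non-coated scaffold with both coatings.

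The 6 MCM genes encode the ring of subunits that unwinds DNA ahead of the fork. With collagen their means ran from 0.15 (Mcm3) to 0.60 (Mcm7), with a median of 0.27. Above 0 on both arrays were 5 of 6, against 39.9% of all genes. Among these, Mcm2 read 0.49 and 0.008 and Mcm4 0.018 and 0.55, so each had 1 array near 0. Mcm7 had 0.49 and 0.70. Mcm6 had arrays of opposite sign, with -0.04 and 0.35. With PMB the median was -0.02, and the arrays of Mcm2, Mcm4, Mcm5 and Mcm7 had opposite signs. Mcm6 read 0.12 and 0.63 with PMB, a mean of 0.37 ± 0.37, and Mcm3 averaged -0.05. The subunits form 1 complex, and the SD over their 6 means was 0.18 with collagen and 0.23 with PMB. Their dye-swap SDs reached 0.38 with collagen and 0.47 with PMB, and differences between the subunits were not tested.

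The genes of nucleotide supply showed the opposed pattern most evenly among the G1/S members. Rrm1 and Rrm2 encode the subunits of ribonucleotide reductase, Tyms encodes thymidylate synthase and Tk1 thymidine kinase 1. Their collagen means were 0.18, 0.47, 0.52 and 0.44, all above 0 on both arrays. Their PMB means were -0.17, -0.29, -0.38 and -0.44, all below 0 on both. Tk1, among the 8 lowest members with PMB, had -0.36 and -0.52 there. Chek1, which encodes the kinase that guards stalled forks, lay with them at 0.30 with collagen and -0.36 with PMB.

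Pcna, which encodes the sliding clamp of the replication fork, ran against this group. It was the lowest member with collagen, at -0.61 and -0.17 on the arrays (mean -0.39 ± 0.31), and it was also low with PMB, at -0.74 and -0.20 (mean -0.47 ± 0.38). The array held 10 entries for Pcna with 1 accession. On collagen replicate 1 all 10 lay between -0.67 and -0.56, with an SD of 0.037, and on PMB replicate 1 between -0.91 and -0.61. On replicate 2 they lay between -0.28 and -0.02 with collagen and between -0.47 and 0.10 with PMB. The 2 dye orientations therefore gave different sizes for Pcna, and the gap between them was larger than the SD of its entries on any array. E2f1, with 11 entries, and Ccnd1, with 10, were less far apart between orientations, and the Ccnd1 entries spread widely on PMB replicate 2 alone, with an SD of 0.34. These repeats share an array and an extract and are not replicates of a coating.

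**Figure D3:**
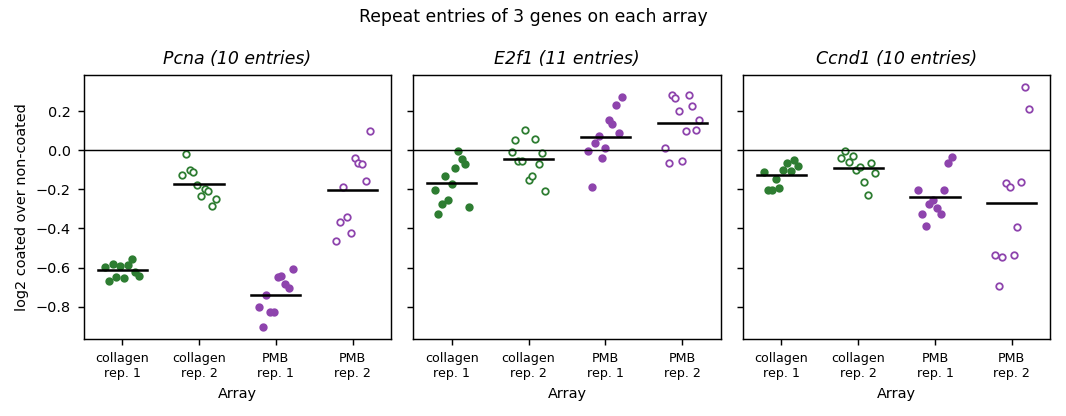
Log2 coated over non-coated ratio of every repeat entry of Pcna, E2f1 and Ccnd1 on the 4 arrays, with collagen arrays in green, PMB arrays in purple and bars for the means. The Pcna entries cluster tightly near -0.61 and -0.74 on the replicate 1 arrays and lie nearer 0 on the replicate 2 arrays.

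Of the mitotic members, 22 of 23 were above 0 on both collagen arrays, against 39.9% of all genes. Below 0 on both PMB arrays were 19 of 23, against 33.6% of all genes. Only Bub3, whose protein also works outside mitosis, stayed at 0, with means of -0.01 with collagen and 0.01 with PMB. Its 3 measured entries did not share a direction and ran from -0.39 to 0.20 with collagen. Mki67, which encodes the proliferation marker Ki-67, averaged 0.28 with collagen and -0.07 with PMB, a smaller ratio than most mitotic members had. Of its 2 entries 1 was near 0 with PMB. Top2a encodes the topoisomerase that untangles sister chromatids. It had 0.70 and 0.39 on the collagen arrays, and -0.69 and -0.60 on the PMB arrays, so its mean with PMB (-0.64 ± 0.068) was the second lowest of all members.

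The cyclin-dependent kinase of mitosis gave the lowest PMB value. Cdk1 read -0.88 and -0.65 with PMB (mean -0.77 ± 0.16, 1.70-fold lower) and 0.32 and 0.44 with collagen. Ccnb2, a B-type cyclin that binds it, averaged 0.51 with collagen and -0.31 with PMB. Ccna2, the cyclin of S phase and G2, averaged 0.40 with collagen, and its PMB arrays differed in sign. Foxm1, the forkhead factor of the later wave, was among the highest with collagen, at 0.68 and 0.82 (mean 0.75 ± 0.10). It was not low with PMB, where its arrays read -0.04 and 0.34.

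The mitotic kinases were higher with collagen and lower with PMB on every array. Plk1, the polo-like kinase of centrosomes and mitotic entry, had 0.41 and 0.85 with collagen and averaged -0.29 with PMB. Aurka, the Aurora kinase of spindle poles, had 0.42 and 0.76 and averaged -0.21 with PMB. Aurkb, the kinase of the chromosomal passenger complex, averaged 0.41 with collagen and had -0.20 and -0.91 with PMB (mean -0.55 ± 0.51). Birc5, which encodes survivin, another passenger subunit, had 0.66 and 0.87 with collagen and a PMB mean of -0.16. The 2 PMB arrays of Aurkb were far apart, so its place among the lowest PMB members rests largely on replicate 2.

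Among spindle checkpoint and anaphase genes were the 2 members with the highest collagen ratios, and, in Bub3 above, the mitotic member with the lowest. Bub1b, which encodes the checkpoint protein BUBR1, had 0.87 and 1.03 on the collagen arrays, a mean of 0.95 ± 0.11 or 1.93-fold, the highest of all members. Its PMB arrays read -0.45 and -0.16. Cdc20, the activator of the anaphase-promoting complex, came next with 0.72 and 0.84 with collagen (mean 0.78 ± 0.086) and -0.21 and -0.34 with PMB. Bub1, a checkpoint kinase, averaged 0.48 with collagen and -0.24 with PMB. Ube2c, the ubiquitin-conjugating enzyme of the same complex, averaged 0.40 with collagen, with PMB arrays of opposite sign.

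At centromeres and on the spindle the gene means of all 8 members were above 0 on both collagen arrays and below 0 on both PMB arrays, against 12.4% of all genes. Single entries did not all have these signs. An entry of Cenpe read -0.03 on collagen replicate 2, 1 of Kif23 read 0.07 on PMB replicate 1, and 1 of Kif20a was at 0 on PMB replicate 2. Kif11 rested on 1 of 3 entries. Of those left out for missing values, 1 read -0.66 on collagen replicate 1, and the other 0.16 there and 0.81 on PMB replicate 1. Cenpa, the centromeric histone, and the kinetochore genes Cenpe and Cenpf averaged 0.41, 0.38 and 0.50 with collagen. Cenpe, a kinesin, was the lowest of the 3 with PMB, at -0.27 and -0.62. The motor genes Kif11, Kif20a and Kif23, which act in spindle bipolarity and cytokinesis, averaged 0.47, 0.58 and 0.32 with collagen and between -0.26 and -0.23 with PMB. Nusap1 and Tpx2, which encode microtubule-binding proteins of the spindle, were lower with PMB than the motors, at -0.50 and -0.49 for Nusap1 and -0.48 and -0.61 for Tpx2. Tpx2 was barely higher with collagen, at 0.16 and 0.05.

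Set against each other through the shared non-coated extract, the 2 coatings were farther apart than either was from that extract. Collagen over PMB had a median log2 ratio of 0.65 over the 43 members, from -0.22 to 1.25, while the median of all genes was 0.00. The 2-fold rule was passed upward, with more signal at collagen, by 4 members, all mitotic, against 2.74% of all genes. They were Bub1b at 1.25 ± 0.098, Top2a at 1.19 ± 0.29, Cdk1 at 1.15 ± 0.076 and Cdc20 at 1.05 ± 0.18. Each of these 4 rested on 1 measured entry. Top2a had 3 entries and Cdk1 had 2, and the rest of them had no value on any array. Just inside the rule stood Cdc20, and just outside it Aurkb at 0.96 and Nusap1 at 0.93. By orientation, 3 members on replicate 1 and 8 on replicate 2 were past 2-fold, and Bub1b and Cdk1 were past it on both, 2 in all. No member was 2-fold lower, against 3.67% of all genes. At 1.5-fold 25 members were higher, 8 G1/S and 17 mitotic, against 9.35% of all genes, and none was lower, against 10.2% of all genes. In both dye orientations 39 members were above 0, against 42% of all genes. E2f1, Mcm6 and Bub3 were below 0 in both orientations, at -0.21, -0.22 and -0.02.

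**Figure D4:**
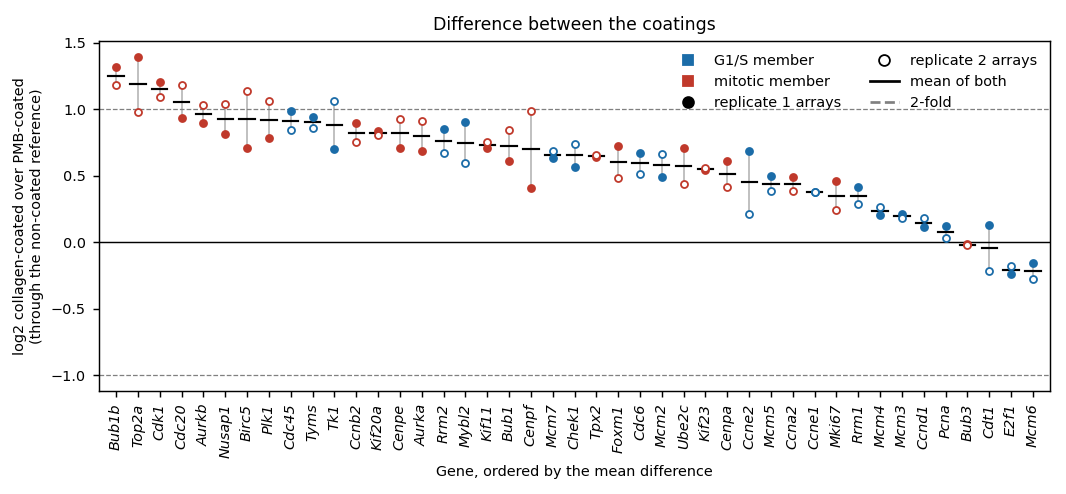
Log2 ratio of collagen-coated over PMB-coated tissue for each measured member, ordered by the mean, with G1/S members in blue and mitotic members in red. Filled points are replicate 1 arrays, open points replicate 2 arrays, bars their mean and dashed lines a 2-fold difference. The 4 members with means above the line, Bub1b, Top2a, Cdk1 and Cdc20, are mitotic, and 3 of the 4 with means below 0 are G1/S.

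The mitotic members stood farther from the non-coated scaffold than the G1/S members did, on both sides of 0. With collagen the G1/S median was 0.38 and the mitotic median 0.47, a difference of -0.09 ± 0.030 (G1/S minus mitotic), with -0.08 on replicate 1 and -0.12 on replicate 2. As means over members the difference was -0.17, with 0.31 for G1/S and 0.48 for mitotic members. With PMB the medians were -0.12 for G1/S and -0.24 for mitotic members, a difference of 0.13 ± 0.082, with 0.05 and 0.17 by array. The G1/S median with PMB was -0.21 on replicate 1 and -0.09 on replicate 2, and -0.06 without Ccnd1, which raised the difference to 0.19 (with Bub3 also left out). Between the coatings the G1/S median was 0.44 and the mitotic median 0.80, a difference of -0.35 ± 0.18, with -0.21 and -0.46 by orientation. The sign of each difference was the same on both arrays. The ± is technical, the members are not replicates, and the difference between the arms was not tested.

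The arms also differed in how many members showed opposed signs. Above 0 on both collagen arrays and below 0 on both PMB arrays were 27 of 43 members, against 12.4% of all genes. The reverse signs were found for E2f1 alone, and for 11.4% of all genes. Of the G1/S members 8 of 20 had this pattern, and of the mitotic members 19 of 23. The 8 G1/S members were Cdc6, Cdc45, Mcm3, Rrm1, Rrm2, Tyms, Tk1 and Chek1. The pattern was thus found for 1 of the 6 MCM genes and for not 1 of the 5 genes of G1 cyclins and entry regulators. Mcm3 had it only as the mean of its 2 entries, since neither entry alone had these signs. With PMB 1 entry of Mcm3 read 0.05 and -0.33 and the other -0.15 and 0.25. Among the mitotic members with the pattern, Mki67, Cenpe, Kif20a and Kif23 each had a measured entry without these signs. Both coatings were read against the same non-coated extract, so a high or low value of that extract enters both ratios alike.

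Other genes of replication were nearer 0 with collagen than the G1/S members were. Of 42 other replication fork and licensing genes 41 were measured, with a median of 0.21 with collagen, where the G1/S members had 0.38, and of -0.10 with PMB. None of them passed the 2-fold rule with either coating. Dbf4, the regulatory subunit of the kinase that fires origins, and Fen1, the flap endonuclease, were highest with collagen at 0.55 and 0.53. Gins2, a helicase subunit, and Rfc3, a clamp loader subunit, were lowest with PMB at -0.84 and -0.62. Above 0 on both collagen arrays were 29 of 41, against 39.9% of all genes. Below 0 on both PMB arrays were 22, against 33.6% of all genes.

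Of 51 other mitotic genes 47 were measured, with a median of 0.43 with collagen and -0.25 with PMB. Above 0 on both collagen arrays were 39 of 47 (39.9% of all genes), with none below on both (32% of all genes). Below 0 on both PMB arrays were 35 (33.6% of all genes). Not one passed the 2-fold rule with a single coating. Kif2c, a microtubule depolymerase, and Cenpm, a centromere protein, had the highest collagen means, 0.83 each, and Dlgap5, a spindle protein, had the lowest PMB mean, -0.81 ± 0.55. Cenpm read 0.97 and 0.69 with collagen and -0.59 and -0.95 with PMB. Between the coatings 9 were at least 2-fold higher with collagen, against 2.74% of all genes. They were led by Cenpm at 1.59 and Cdca3, a regulator of mitotic entry, at 1.33. The median difference was 0.33 for the other replication genes and 0.71 for the other mitotic genes. Opposed signs were found for 17 of 41 other replication genes and for 30 of 47 other mitotic genes, against 12.4% of all genes.

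Other regulators of the step from G1 into S phase, outside the members, gave medians nearer 0. The 5 members classed as G1 cyclins and entry regulators had medians of 0.40 with collagen and 0.00 with PMB. The 17 other G1 cyclins, cyclin-dependent kinases and E2F factors had medians of 0.07 with collagen and -0.08 with PMB. Opposed signs were found for 3 of them, against 12.4% of all genes. Cdk4, the partner of cyclin D, was highest with collagen at 0.61 ± 0.024 and averaged -0.26 with PMB. Cdk2, the partner of cyclin E, averaged -0.57 with collagen and -0.68 with PMB, but nearly all of it came from replicate 2, which read -1.09 and -1.29, where replicate 1 read -0.05 and -0.06. Of 16 genes of cyclin-dependent kinase inhibitors and cycle exit 14 were measured, with medians of 0.06 and -0.14. Cdkn1a, which encodes the inhibitor p21, was lower with collagen at -0.47 ± 0.20 and averaged 0.22 with PMB, the reverse of the mitotic members. The signs of the mitotic members were found for 3 of the 14, against 12.4% of all genes. Among these was Btg2, an anti-proliferative gene, at 0.35 with collagen and -0.47 with PMB. Its difference between the coatings, 0.82, was the largest of the list. Gas1, a growth arrest gene, was highest with collagen at 0.73. With PMB Cdkn2d was lowest of the list at -0.60 and Ccng2 highest at 0.54.

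**Figure D5:**
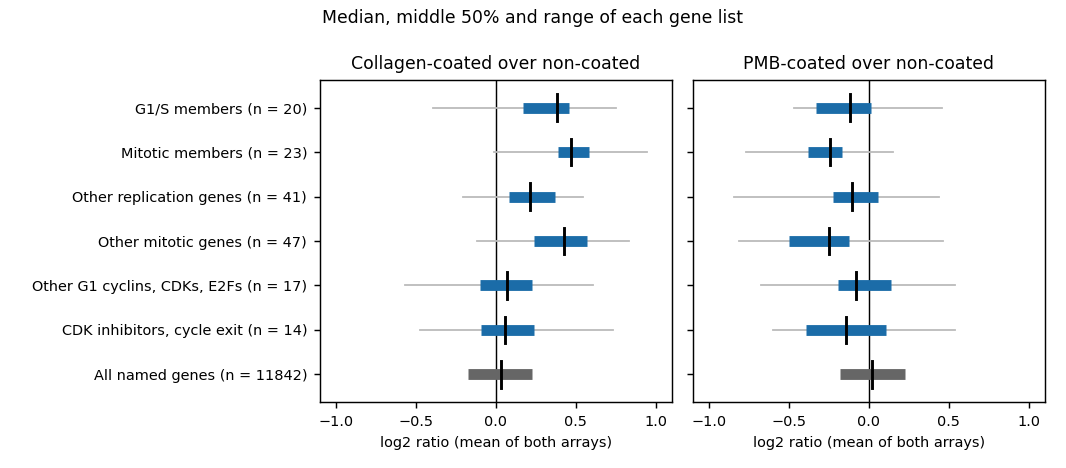
Median (tick), middle 50% (thick bar) and range (thin line) of the log2 coated over non-coated ratio for each gene list, with collagen in the left panel and PMB in the right. Among the 6 cell cycle lists shown, the mitotic lists sit highest with collagen (0.47 and 0.43) and lowest with PMB (-0.24 and -0.25), while all named genes centre near 0.

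Markers of several cell types moved at the same scaffolds. With collagen, the measured neutrophil markers had a median of 1.86 (6 of 8 measured, range 0.15 to 2.56). Of these, 5 were at least 2-fold higher, against 2.21% of all genes. T cell markers had a median of 1.29 (4 of 8, range -0.32 to 2.14). Epidermis and hair follicle markers had 1.37 (4 of 8, -0.02 to 1.91) and blood endothelial markers 0.69 (6 of 6, 0.11 to 0.94). With PMB the medians were 0.23 for neutrophil (range -0.82 to 0.49) and -0.10 for T cell markers (-0.73 to 0.19). They were 0.13 for epidermis and hair follicle (-0.22 to 0.81) and 0.33 for blood endothelial markers (0.19 to 0.73). Mast cell markers were higher with both coatings, at 1.05 with collagen and 1.59 with PMB (range 0.25 to 2.12). Skeletal muscle markers were lower with both, at -3.29 and -1.94. Adipocyte markers had medians of -0.60 with collagen (range -1.03 to 0.26) and 1.24 with PMB. Fibroblast markers had 0.05 (-0.95 to 0.39) and 0.38. Macrophage markers, of which 6 of 8 were measured, had -0.46 (-0.94 to 0.63) and -0.31 (-0.45 to 0.30). The macrophage markers Cd68 and Csf1r and the epidermal keratins Krt5 and Krt14 had no value on all 4 arrays, and of 4 B cell markers only Cd79b was measured, at 0.13 with collagen and -0.34 with PMB. The part of these cell types in the ratios of the cell cycle genes was not tested.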

How the data were processed

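The authors scanned each array at 3 gains, applied LOWESS to the Cy5 and Cy3 signals and deposited their log2 ratio, Cy5 over Cy3, for each spot. The rule for combining the scans, and the rule by which spots were left empty, are not given in the sources used here. Without rescaling, replicate 2 was multiplied by -1, and probes with 4 values were averaged per gene. Symbols came from the platform's annotation, and 33651 of 43377 probes had 1 symbol, 56 several and 9670 none. LOWESS centres each array on its bulk of genes, so ratios are relative to that bulk.

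The members and lists were chosen with earlier results of these data known. Members with the 8 largest ratios per coating and direction and the same sign on both arrays are given in full, and the others by mean, range or count. Other lists are given by up to 4 genes past the 2-fold rule, or up to 2 of the largest size where none passed, per coating and between the coatings. Not every gene that this allowed is named. Motifs were searched as exact letters. Sign turning and fold calls were tested on simulated ratios of each coating over non-coated. These had a single probe per gene and no empty spots, and collagen over PMB was not checked in them. The tools were limma 3.58.1 in R 4.3.3 (for scaled arrays), and numpy 2.4.6, pandas 2.3.3 and matplotlib 3.10.9 in Python 3.11.15. The alternatives were centred or scaled arrays, single arrays, other probes per gene, other member lists and other call rules.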

Additional observations from a re-analysis of the deposited data

Results flagged for a closer look

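In 28 members every array of one coating lay on one side of 0 and every array of the other coating on the opposite side, as 23.8% of all 11842 measured genes had in either direction. The difference between the coatings was not tested in any of them, since each coating had 1 extract. Of the 28, 9 were G1/S and 19 were mitotic members.

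E2f1, the activator E2F, was the only one of them below 0 with collagen and above 0 with PMB. Its collagen minus PMB difference was -0.21 on the log2 scale. Its 11 entries lay on both sides of 0 on every array but collagen replicate 1. The other 8 G1/S members had the opposite signs, positive with collagen and negative with PMB. Their differences were 0.91 for Cdc45, 0.90 for Tyms, 0.88 for Tk1, 0.76 for Rrm2, 0.65 for Chek1, 0.59 for Cdc6, 0.35 for Rrm1 and 0.20 for Mcm3. The signs of Mcm3 held for the mean of its 2 entries but for neither entry alone.

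The 19 mitotic members were likewise positive with collagen and negative with PMB as gene means. Mki67, Cenpe, Kif20a and Kif23 each had a measured entry without these signs. Checkpoint and anaphase genes differed by 1.25 (Bub1b), 1.05 (Cdc20) and 0.72 (Bub1). Top2a differed by 1.19 and Mki67, the other general proliferation gene, by 0.35. Cdk1 differed by 1.15 and Ccnb2 by 0.82. Among kinases and passenger genes the differences were 0.96 for Aurkb, 0.92 for Birc5, 0.92 for Plk1 and 0.80 for Aurka. Centromere genes differed by 0.82 (Cenpe), 0.70 (Cenpf) and 0.51 (Cenpa). Spindle genes differed by 0.93 (Nusap1), 0.82 (Kif20a), 0.73 (Kif11), 0.65 (Tpx2) and 0.55 (Kif23).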

How the results depend on the processing

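No member's ratio past the 2-fold rule and no median of either arm changed sign under an alternative that was run, while single members did. With PMB, 3 members changed sign with centred arrays (Mybl2, Mcm5 and Bub3), 2 with scaled arrays, 3 with the probe closest between dyes, and 6 on replicate 1 and 4 on replicate 2, and with collagen 1 on each array. Not all of these means lay near 0, since Mcm2 (-0.33) read 0.00 on replicate 1 and Ube2c (-0.17) read 0.08 on replicate 2. The G1/S collagen median of 0.38 became 0.36 with centred arrays, 0.39 with scaled arrays, 0.39 with the probe closest between dyes, 0.40 with probes measured on both arrays of the coating, 0.40 without Ccnd1 and Bub3 and 0.31 as a mean over members, with single arrays at 0.37 and 0.37. As means, G1/S minus mitotic was -0.17 with collagen in place of -0.09. The mitotic PMB median of -0.24 became -0.26 with centred arrays, -0.27 with scaled arrays, -0.26 with the closest probe, -0.25 without Ccnd1 and Bub3, -0.25 without the members of both S and G2 phase and -0.28 as a mean, with single arrays at -0.27 and -0.26. The G1/S PMB median of -0.12 was -0.21 on replicate 1, -0.09 on replicate 2 and -0.06 without Ccnd1 and Bub3, where G1/S minus mitotic became 0.19 in place of 0.13.

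At least 2-fold higher with collagen were 0 members as reported, 0 and 1 on single arrays and 8 at 1.5-fold, and 2 were lower with PMB at 1.5-fold. Between the coatings the 4 members at least 2-fold higher became 3 on replicate 1 and 8 on replicate 2, 2 where each orientation had to pass and 25 at 1.5-fold. In counts chosen after seeing the data, members below 0 with collagen numbered 5 on replicate 1 and 3 on replicate 2, and members above 0 with PMB 5 on replicate 1 and 13 on replicate 2, where 4 were above 0 on both. No paired analysis was possible because no test was made. Same-numbered arrays share a dye orientation and the non-coated extract, and collagen over PMB was taken within each number. Depth cannot be judged, since the table holds ratios without signal or background. The number of arrays limits the technical precision, and 1 extract per scaffold leaves differences between mice unmeasured.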
